A study of Mus musculus with 48 samples.

Results

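Cathepsins are the proteases of the lysosome, and the family described here was 10 genes of mouse lung: Ctsk, Ctss, Ctsl, Ctsb, Ctsz, Ctsh and Ctsc, which code for cysteine proteases, Ctsd and Ctse, which code for aspartic proteases, and Ctsa, which codes for a serine carboxypeptidase. They were chosen by symbol, as every probe set that the annotation of the array gives to those names, which was 16 probe sets of the 20380 used and 10 genes of 12393. Where a gene had several probe sets, the brightest stood for it, and the others are given beside it.

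The study measured RNA in the lungs of 48 male C57BL/6 mice on Affymetrix arrays, 1 array per animal and 8 animals per group. Regular weight mice (RW) ate a diet with about 5 kcal% fat, and obese mice (DIO, diet-induced obese) ate one with 60 kcal% fat from 6 weeks of age, 9 weeks before exposure began at an age of 15 weeks. Mice of each diet breathed filtered air (SC in array names), mainstream smoke (MS, drawn through the cigarette) or sidestream smoke (SS, given off by its burning end) by nose alone, for 5 hours on each of 8 days over 2 weeks, and the lungs were taken on the day after the last exposure. The 6 groups are therefore regular weight in air, obese in air, regular weight in mainstream, obese in mainstream, regular weight in sidestream and obese in sidestream. An LPS protocol lasting 4 days is mentioned too, and it is not known whether these animals had any treatment besides smoke. The series title asks about the effect of obesity on inflammatory and oxidative stress responses to smoke.

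Cathepsins are made as inactive precursors, carried to the lysosome by mannose 6-phosphate receptors and other sorting proteins, and activated there in acid. Cystatins and some serpins hold in check those that leave the lysosome. In the lung, macrophages are a main source of cathepsins K, S, L, B and D, whose targets include elastin, collagen and the invariant chain of MHC class II, while cathepsin H takes part in the maturation of surfactant protein B in alveolar type 2 cells. Cathepsin K is best known from the osteoclast, the bone-resorbing cell, where it degrades collagen.

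Levels are log2 array values as deposited, differences are on the log2 scale with ± a standard error from limma, and adjusted p-values are limma's with Benjamini-Hochberg adjustment over all 12393 genes. A gene is said to have risen or fallen at an adjusted p below 0.05. Levels of different genes' probes are not compared. Lung identity was clear in all groups, with the surfactant gene Sftpc between 14.97 and 15.13 on every array. The arrays' medians lay between 7.82 and 7.94, and no batch was given. There were 5 arrays that correlated less with the rest (mean r of 0.962 to 0.982, against at least 0.987 for the others): DIO-SC-3, DIO-SC-7, RW-SS-6, DIO-MS-1 and DIO-MS-6. DIO-SC-7 carried thymus markers (mean of 4 markers 11.3, against a median of 5.40 in its group) and DIO-SC-3 squamous epithelium markers (12.8, against 5.07). DIO-SC-3 also carried skeletal muscle markers (13.5, against 7.09). DIO-SC-7 and RW-SS-6 carried fat markers (13.0 each, against medians of 7.11 and 6.15). Results that rest on these 5 arrays are given with and without them.

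Promoter sequence was listed for 7 of the 10 genes, Ctsk, Ctsd, Ctsl, Ctss, Ctsz, Ctsc and Ctsa. Shown here are the 250 bases before the start of Ctsk and Ctss, which are neighbouring coding genes on chromosome 3 and moved by very different amounts, and of Ctsd, the gene with the next largest change in regular weight mice. The sequences are from RefSeq on build GRCm38.p6, 5′ to 3′ on the strand of the gene, and capitals mark each E-box CACGTG, the core of the element bound by the TFEB and MITF family of lysosomal gene regulators.
Ctsk promoter, chr3:95498960-95499209, plus strand: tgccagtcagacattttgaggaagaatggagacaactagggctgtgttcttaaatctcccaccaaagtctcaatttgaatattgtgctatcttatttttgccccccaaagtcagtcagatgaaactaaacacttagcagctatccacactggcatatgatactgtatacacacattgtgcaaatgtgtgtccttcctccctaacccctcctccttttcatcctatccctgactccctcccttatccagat
Ctss promoter, chr3:95526536-95526785, plus strand: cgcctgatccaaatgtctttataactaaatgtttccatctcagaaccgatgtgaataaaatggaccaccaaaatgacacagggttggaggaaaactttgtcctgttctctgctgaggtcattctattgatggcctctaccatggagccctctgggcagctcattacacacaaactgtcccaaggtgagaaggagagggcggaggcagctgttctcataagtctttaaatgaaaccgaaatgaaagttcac
Ctsd promoter, chr7:142387828-142388077, minus strand: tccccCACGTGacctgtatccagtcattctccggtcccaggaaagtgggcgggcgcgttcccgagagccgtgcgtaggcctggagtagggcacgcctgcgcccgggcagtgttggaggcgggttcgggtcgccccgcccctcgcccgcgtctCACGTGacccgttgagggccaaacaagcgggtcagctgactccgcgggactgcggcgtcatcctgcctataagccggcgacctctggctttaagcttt
The Ctsd window held 2 E-boxes, whose first bases lie at positions -245 and -98 from the start. The second of them sat in the extended form TCACGTGA, whose first base was at -99. The Ctsk and Ctss windows held no E-box in these letters. Among the other windows, E-boxes were found for Ctsl at -236 and for 1 of 2 starts listed for Ctsa at -12, the latter also within TCACGTGA. The Ctsl window (chr13:64370521-64370770, minus strand) lay inside the span listed for its gene, which ends at 64370772. That Ctsa window (chr2:164833523-164833772, plus strand) also lay inside its gene, which begins at 164832872. These E-boxes of Ctsl and Ctsa are therefore not upstream of the outermost end of their genes. Of 32851 promoter windows of the same length, 6.02% held CACGTG and 0.785% held TCACGTGA, which contains it, on either strand (both letter strings read the same on each). The AP-1 motif TGANTCA, found in 6.75% of all windows, was in none of the 8 windows of the family, and the PU.1 core GAGGAAGT, found in 2.44%, was in that of Ctsc. A match of letters is not a binding site, and no match says only that these letters are not in the window.

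Mainstream smoke raised most of the family in mice of both diets. Compared with air, 8 of 10 cathepsins rose and none fell in regular weight mice (Ctsk, Ctsd, Ctsb, Ctss, Ctsz, Ctsh, Ctsc and Ctsa), and the same 8 rose and none fell in obese mice. Over all genes tested, 6.61% rose and 8.07% fell in regular weight mice and 11.7% rose and 9.76% fell in obese mice. The median difference of the 10 genes was 0.51 in regular weight mice, against -0.03 over all genes, and 0.71 in obese mice, against -0.02. In regular weight mice, 6 of the 10 (Ctsk, Ctsd, Ctsb, Ctsz, Ctsc and Ctsa) had all 8 smoke arrays above all 8 air arrays, as did 2.78% of all genes. In obese mice, 8 did, against 3.03% of all genes. In whole lung, more cells of a type and more RNA per cell cannot be told apart.

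**Figure D1:**
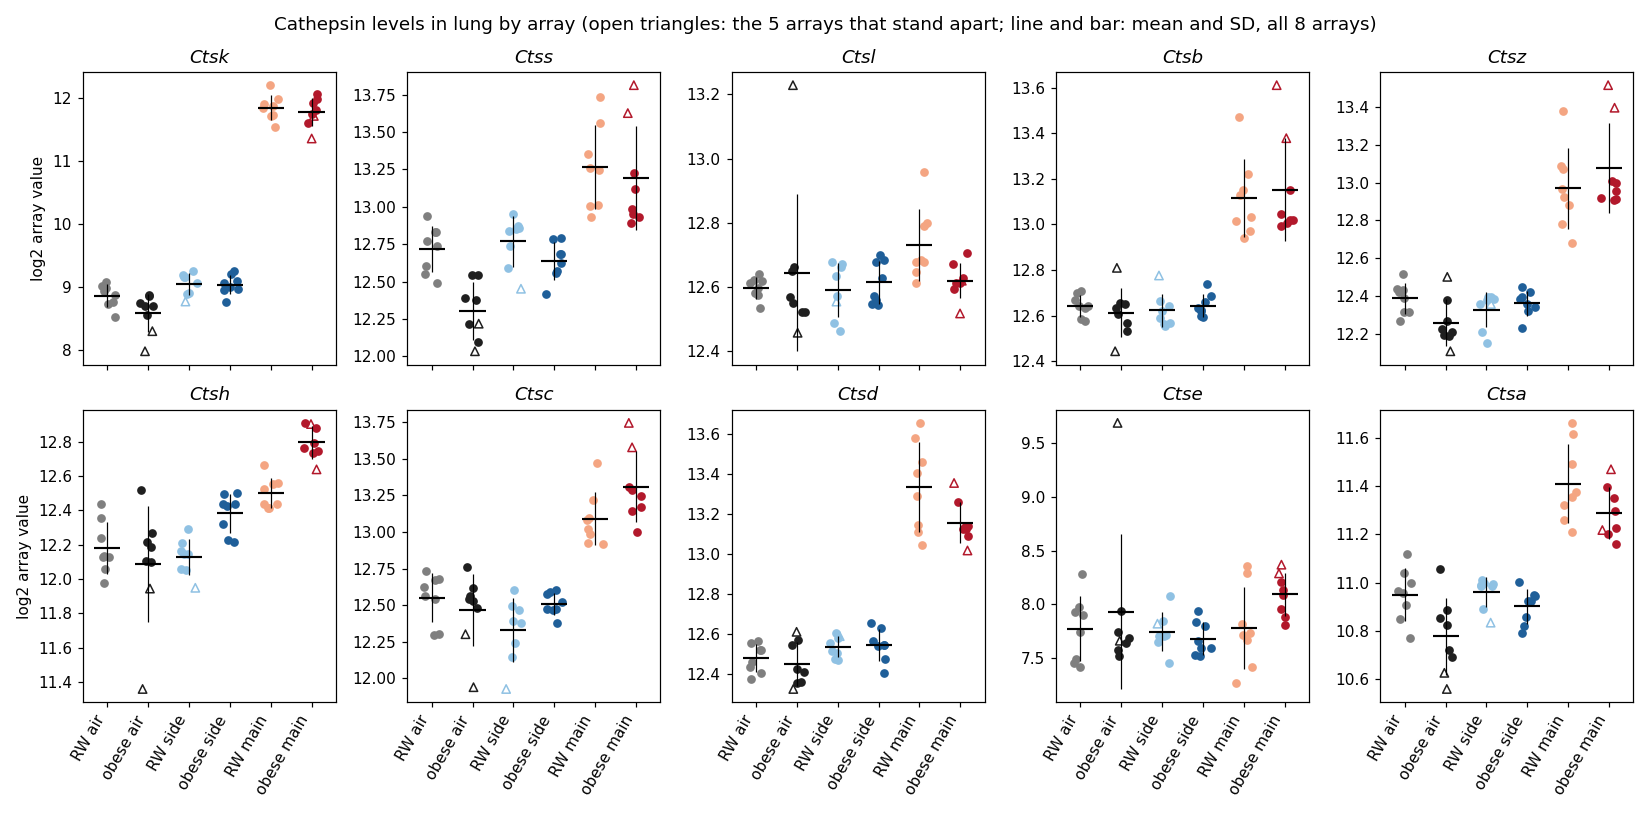
Log2 array value of each cathepsin on each array (points), by diet and exposure, with the mean and SD of each group of 8 (line and bar); open triangles are the 5 arrays that stand apart, and each panel has its own axis. Ctsk lay between 11.36 and 12.21 on all 16 mainstream arrays and at 9.27 or below on all 32 others, while Ctsl and Ctse overlapped between all groups.

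Cathepsin K, a strong collagenase and elastase, changed by far more than any other member. In regular weight mice its lowest, median and highest array values were 8.52, 8.91 and 9.08 in air and 11.54, 11.86 and 12.21 in mainstream smoke. In obese mice they were 7.98, 8.70 and 8.89 in air and 11.36, 11.79 and 12.08 in mainstream smoke. The smoke and air arrays were far apart in both diets, with all 8 mainstream arrays above all 8 air arrays in each. The rise was 2.99 ± 0.10, or 7.92-fold (95% interval 6.85 to 9.17, adjusted p = 1.3e-26), in regular weight mice. It was 3.19 ± 0.10, or 9.12-fold (95% interval 7.89 to 10.6, adjusted p = 3.8e-28), in obese mice. Among 12393 genes, Ctsk ranked 7 by size of rise in regular weight mice and 11 in obese mice.

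Sidestream arrays of Ctsk stayed near the air arrays. They lay at 8.77, 9.11 and 9.27 (lowest, median, highest) in regular weight mice and at 8.76, 9.04 and 9.26 in obese mice. In obese mice 7 of 8 sidestream arrays were above every air array, and the rise was 0.45 ± 0.10, or 1.37-fold (adjusted p = 0.0046). Without the 5 arrays it was 0.30 ± 0.09 (adjusted p = 0.022), where DIO-SC-7 had been the lowest air array. In regular weight mice the difference was 0.19 ± 0.10 (adjusted p = 0.39), with 4 of 8 sidestream arrays above every air array. The groups of Ctsk ran, from low to high mean, obese air, regular weight air, obese sidestream, regular weight sidestream, obese mainstream and regular weight mainstream. The 2 sidestream groups did not differ beyond their SD, and neither did the 2 mainstream groups.

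Cathepsin S, which trims the invariant chain in antigen-presenting cells, rose in mainstream smoke and was lower in obese mice in air. Its lowest, median and highest values were 12.49, 12.75 and 12.94 in regular weight air and 12.94, 13.25 and 13.74 in regular weight mainstream. In obese mice they were 12.03, 12.30 and 12.54 in air and 12.89, 13.05 and 13.81 in mainstream smoke. The groups touched in regular weight mice, where 7 of 8 mainstream arrays were above every air array, and did not overlap in obese mice. The rise was 0.55 ± 0.11 (adjusted p = 0.00043) in regular weight mice and 0.89 ± 0.11 (adjusted p = 1.7e-08) in obese mice. The obese value was 0.66 ± 0.10 without the 5 arrays, of which DIO-MS-1 was the highest mainstream and DIO-SC-7 the lowest air array.

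Cathepsins B and Z, both cysteine proteases, followed each other closely. Ctsb had lowest, median and highest values of 12.58, 12.64 and 12.71 in regular weight air and 12.94, 13.08 and 13.47 in mainstream smoke, and in obese mice 12.44, 12.62 and 12.81 in air and 12.99, 13.03 and 13.61 in mainstream smoke. No mainstream array was as low as any air array of its diet. The rise of Ctsb was 0.47 ± 0.07 (adjusted p = 5.7e-07) in regular weight mice and 0.54 ± 0.07 (adjusted p = 1.2e-08) in obese mice. The obese value was 0.43 ± 0.05 without the 5 arrays, below that of regular weight mice. Ctsz had 12.27, 12.40 and 12.51 in regular weight air, 12.68, 12.94 and 13.38 in mainstream smoke, and in obese mice 12.11, 12.22 and 12.50 in air and 12.91, 12.98 and 13.52 in mainstream smoke. Its groups were likewise separate, and the rise was 0.58 ± 0.08 (adjusted p = 1.3e-07) in regular weight mice and 0.82 ± 0.08 (adjusted p = 7.3e-12) in obese mice. Without the 5 arrays the obese rise of Ctsz was 0.71 ± 0.07.

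The further probe sets of these genes gave the same directions. All 4 probe sets of Ctsb rose in mainstream smoke in both diets. The probe set 1417491_at rose least, by 0.23 in regular weight mice and 0.20 in obese mice, where the other 3 rose by 0.40 to 0.60. All 3 probe sets of Ctsz rose, by 0.57 to 0.76 in regular weight mice and by 0.82 to 0.92 in obese mice. Across the 48 arrays the 3 of Ctsz correlated at r of 0.97 to 0.99, while 1417491_at of Ctsb correlated with the brightest Ctsb probe set at 0.45.

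Cathepsin C (dipeptidyl peptidase I, the activator of granzymes and neutrophil serine proteases) had lowest, median and highest values of 12.30, 12.59 and 12.73 in regular weight air and 12.92, 13.05 and 13.47 in mainstream smoke. In obese mice the values were 11.94, 12.54 and 12.76 in air and 13.00, 13.26 and 13.74 in mainstream smoke. No mainstream array overlapped the air arrays of its diet. The rise was 0.54 ± 0.10 (adjusted p = 7.9e-05) and 0.84 ± 0.10 (adjusted p = 2.9e-09) respectively, and the obese value was 0.61 ± 0.08 without the 5 arrays. In regular weight mice in sidestream smoke Ctsc was 0.22 ± 0.10 below air, which did not pass (unadjusted p = 0.029, adjusted p = 0.25), and RW-SS-6 was the lowest array.

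Cathepsin H, an aminopeptidase, rose in mainstream smoke in both diets. Its lowest, median and highest values in regular weight mice were 11.98, 12.13 and 12.44 in air, 11.95, 12.14 and 12.29 in sidestream smoke and 12.41, 12.48 and 12.66 in mainstream smoke. In obese mice they were 11.36, 12.15 and 12.52 in air, 12.21, 12.43 and 12.50 in sidestream smoke and 12.64, 12.78 and 12.91 in mainstream smoke. The obese mainstream arrays were above every array of the other groups except that the lowest of them, at 12.64, was just below the highest regular weight mainstream array. The mainstream rise was 0.32 ± 0.09 (adjusted p = 0.0078) in regular weight mice, with 6 of 8 arrays above every air array, and 0.71 ± 0.09 (adjusted p = 8.8e-09) in obese mice. The obese value was 0.57 ± 0.07 without the 5 arrays, of which DIO-SC-7, at 11.36, was the lowest array of all.

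The sidestream rise of Ctsh in obese mice was 0.30 ± 0.09 (adjusted p = 0.025), with 0 of 8 arrays above every air array. It did not pass without the 5 arrays (0.15 ± 0.06, adjusted p = 0.13), nor when DIO-SC-3, DIO-SC-7, DIO-SS-4 or DIO-SS-7 alone was left out (adjusted p from 0.050 to 0.066), nor in a fit of only the 2 groups compared (adjusted p = 0.18). The alveolar type 2 markers, a cell type that uses cathepsin H, had a mean of 9 markers between 12.3 and 13.0 in obese air, lowest on DIO-SC-7, and between 12.9 and 13.1 in obese sidestream, and 2 of 9 rose between these groups, or 0 of 9 without the 5 arrays. Their part in the result was not tested.

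Cathepsin D, the main aspartic protease of the lysosome, rose in both diets with no overlap. Its lowest, median and highest values were 12.37, 12.49 and 12.56 in regular weight air and 13.04, 13.35 and 13.65 in mainstream smoke, and in obese mice 12.32, 12.42 and 12.61 in air and 13.02, 13.13 and 13.35 in mainstream smoke. The lowest mainstream arrays of both diets were above every air and sidestream array. The rise was 0.86 ± 0.06, or 1.81-fold (adjusted p = 3.3e-15), in regular weight mice and 0.71 ± 0.06, or 1.63-fold (adjusted p = 1.2e-12), in obese mice.

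Cathepsin A, which protects lysosomal sialidase and beta-galactosidase besides its own peptidase activity, had lowest, median and highest values of 10.77, 10.96 and 11.12 in regular weight air and 11.21, 11.37 and 11.66 in mainstream smoke. In obese mice they were 10.56, 10.77 and 11.06 in air and 11.16, 11.26 and 11.47 in mainstream smoke. The groups did not overlap within a diet. The rise was 0.46 ± 0.06 (adjusted p = 1.7e-07) and 0.51 ± 0.06 (adjusted p = 5.5e-09) respectively. The obese value was 0.43 ± 0.06 without the 5 arrays, below that of regular weight mice.

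Cathepsin L, another general lysosomal cysteine protease, moved little. Its arrays lay between 12.53 and 12.64 in regular weight air and between 12.61 and 12.96 in regular weight mainstream, where 7 of 8 were above every air array. The difference of 0.13 ± 0.06 did not pass with all arrays (adjusted p = 0.15) and passed without the 5 (same difference, ± 0.04, adjusted p = 0.013) or without DIO-SC-7 alone (adjusted p = 0.017), an array of another group that enters through the shared estimate of the spread. In obese mice the difference was -0.03 ± 0.06 with all arrays and 0.06 ± 0.05 without the 5. No pair of groups next to each other in the order of the means of Ctsl differed beyond their SD, and the same held for Ctse.

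Cathepsin E, an aspartic protease of the endosome known from gastric epithelium and lymphoid cells, did not pass in any comparison. Its main probe set 1427797_s_at had medians from 7.62 to 8.11 in the 6 groups, and the highest array of all was DIO-SC-7 at 9.69. The difference between mainstream smoke and air was 0.01 ± 0.18 in regular weight mice and 0.16 ± 0.18 in obese mice. Without DIO-SC-7 alone the obese difference was 0.41 ± 0.12 (adjusted p = 0.010), and without all 5 arrays it was 0.33 ± 0.14 (adjusted p = 0.095). The other probe set, 1418989_at, gave 0.08 and 0.07 for these differences. The 2 probe sets of Ctse correlated at r = 0.10 across the 48 arrays. In air the difference of obese from regular weight mice was 0.16 for the main probe set (-0.09 without the 5 arrays) and -0.17 for the other, with none of these past the threshold. Which of them follows the transcript is not known. The gastric markers, 4 of 4 measured, had means between 6.37 and 6.94 on all arrays, and none of the 4 passed between mainstream smoke and air in either diet.

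**Figure D2:**
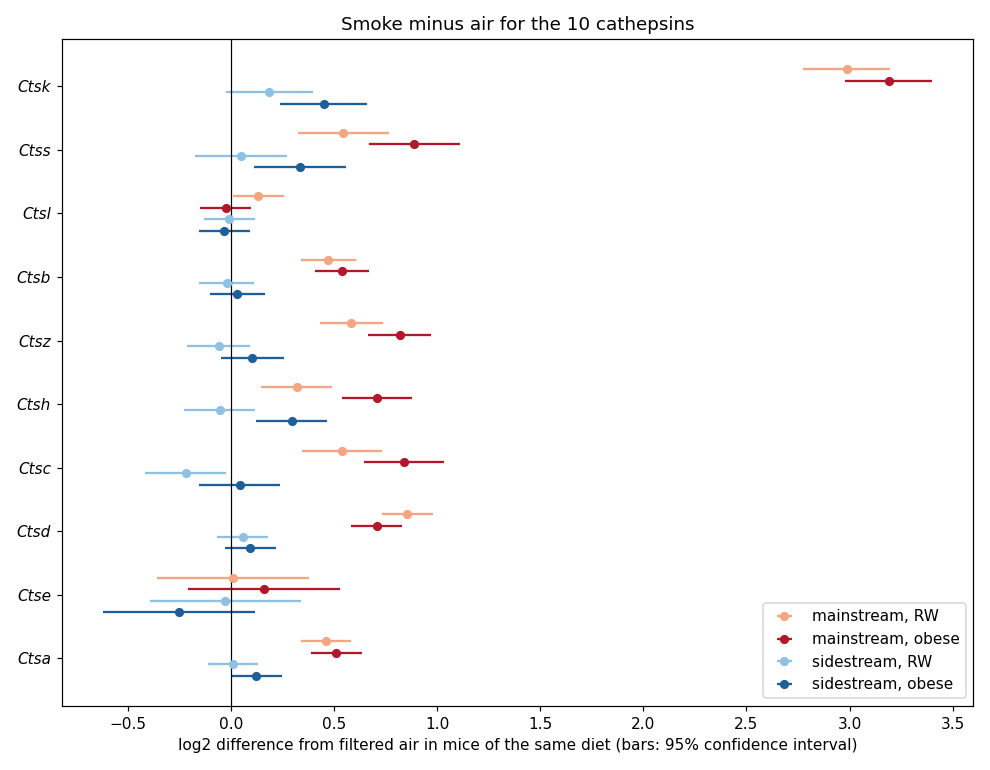
Log2 difference of smoke from filtered air for the 10 cathepsins (points) with 95% confidence intervals (bars), for each smoke and diet, from limma over all 48 arrays. Ctsk lies near 3 in mainstream smoke in both diets (2.99 and 3.19), the other 7 that rose lie between 0.32 and 0.89, and the sidestream points lie between -0.25 and 0.45.

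Sidestream smoke changed few members. Compared with air, none of 10 passed in regular weight mice (limma, adjusted p below 0.05), where 2.17% of all genes did. At an unadjusted p below 0.05 there was 1 of 10, Ctsc, and the share of all genes at that threshold is not given here. In obese mice 2 rose, Ctsk and Ctsh, against 4.26% of all genes, and none fell. Ctss came closest beyond these, at 0.34 ± 0.11 (adjusted p = 0.053) with 7 of 8 sidestream arrays above every air array. It passed when any of 9 arrays was left out alone. The median difference of the 10 genes was -0.01 in regular weight mice and 0.10 in obese mice, against -0.01 and 0.02 over all genes. Without the 5 arrays the count in obese mice was 1, Ctsk. In the order of group means, the 4 air and sidestream groups of Ctsd, Ctsb, Ctsz and Ctsc had no neighbours that differed beyond their SD. For Ctss and Ctsa, obese air lay lowest by more than the SD, and the other 3 of these groups did not separate. For Ctsa the gap only just passed the SD (0.1241 against 0.1235). Without the 5 arrays the means of Ctsa were 10.84 (SD 0.13) in obese air and 10.90 (SD 0.07) in obese sidestream, which did not differ beyond their SD. For Ctsh, obese sidestream lay above the other 3.

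Set directly against sidestream smoke, mainstream smoke gave higher levels of the same 8 cathepsins in each diet. In regular weight mice 8 of 10 were higher, against 6.05% of all genes, and 7 had all 8 mainstream arrays above all 8 sidestream arrays, against 2.97%. In obese mice 8 of 10 were higher, against 8.83% of all genes, and all 8 of these were fully separate, against 3.82%. The differences ran from 0.37 (Ctsh) to 2.80 (Ctsk) in regular weight mice and from 0.39 (Ctsa) to 2.74 (Ctsk) in obese mice. Ctsc differed by 0.76 ± 0.10 (adjusted p = 9.2e-08) in regular weight mice, more than its difference from air. These comparisons share the mainstream arrays with those against air, so they are not separate evidence. Ctsl passed in regular weight mice without the 5 arrays (0.13 ± 0.04, adjusted p = 0.019), and Ctse in obese mice without DIO-SC-7 alone (0.41 ± 0.12, adjusted p = 0.0096).

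Between the diets, 1 cathepsin differed in air. Ctss was lower in obese mice by 0.42 ± 0.11, or 1.33-fold (adjusted p = 0.012), with 6 of 8 obese arrays below every regular weight array, and it stayed lower without the 5 arrays (-0.36 ± 0.09, adjusted p = 0.0085). Of all genes tested, 5.99% were lower in obese mice in air. The other 9 did not pass. Ctsk was 0.28 ± 0.10 lower (adjusted p = 0.089) and Ctsa 0.17 ± 0.06 lower (adjusted p = 0.065). Ctsk passed without RW-SC-4 or DIO-SC-4 alone, and Ctsa without RW-SC-2 or DIO-SC-4 alone. Without the 5 arrays Ctsk was 0.13 ± 0.09 lower (adjusted p = 0.42) and Ctsa 0.11 ± 0.06 lower (adjusted p = 0.27). Beside these, 3 of 12 macrophage markers (Itgax by 0.33, Cd68 by 0.30 and Csf1r by 0.25), 5 of 9 dendritic cell and MHC class II markers and 5 of 6 B cell markers were lower in obese mice in air. The same counts were 1, 4 and 5 without the 5 arrays. The mean of the 9 dendritic cell and class II markers lay between 9.64 and 9.81 in regular weight and between 9.24 and 9.68 in obese mice, and that of the 6 B cell markers between 8.49 and 9.13 and between 7.56 and 8.21. The part of these cells in the level of Ctss was not tested.

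In smoke, none of the 10 passed between the diets. In mainstream smoke 3 of 10 had an unadjusted p below 0.05 in limma: Ctsh, higher in obese mice by 0.30 ± 0.09 (adjusted p = 0.074), Ctsc, higher by 0.22 ± 0.10 (adjusted p = 0.31), and Ctsd, lower by 0.18 ± 0.06 (adjusted p = 0.15). Ctsc was higher by 0.10 ± 0.07 (adjusted p = 0.62) without the 5 arrays, and Ctsd lower by 0.19 ± 0.06. In sidestream smoke 1 did, Ctsh, higher by 0.25 ± 0.09 (adjusted p = 0.16). Of all genes, 1.21% passed at an adjusted p below 0.05 in mainstream and 0.976% in sidestream smoke. The share of all genes at an unadjusted p below 0.05 is not given here. In mainstream as in sidestream smoke, 0 of 9 alveolar type 2 markers differed between the diets, with all arrays and without the 5. Ctsh had 7 of 8 obese arrays above every regular weight array in mainstream smoke and 6 of 8 in sidestream smoke. Without the 5 arrays it passed in both, by 0.30 ± 0.06 (adjusted p = 0.0052) and 0.23 ± 0.06 (adjusted p = 0.028). Without DIO-SC-7 alone it passed in both as well (adjusted p = 0.0072 and 0.022). Without DIO-SC-4 or RW-MS-7 alone it passed in mainstream smoke (adjusted p of 0.046 each).

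**Figure D3:**
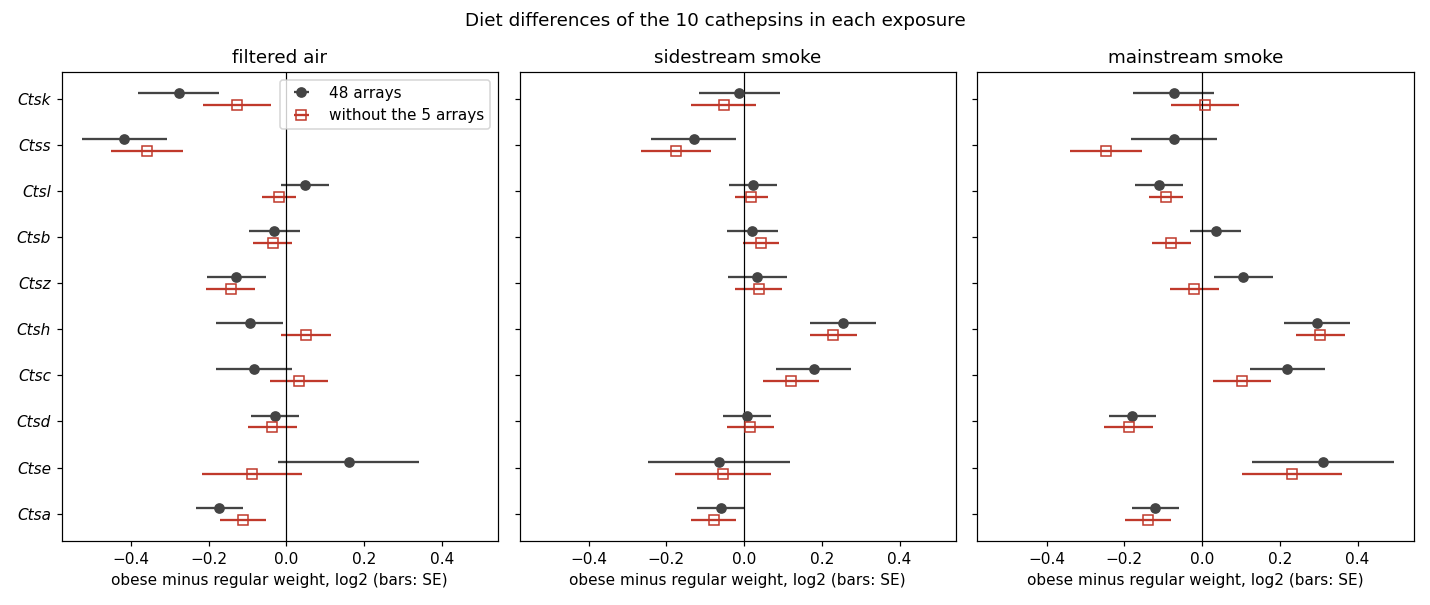
Obese minus regular weight log2 difference of each cathepsin (points, with standard error bars) in air, sidestream and mainstream smoke, from all 48 arrays (filled circles) and without the 5 arrays that stand apart (open squares). Ctss is lowest in air, at -0.42, and Ctsh is to the right of 0 in both smokes, at 0.25 and 0.30, with little change when the 5 arrays are left out.

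The test of whether the response to smoke differed between the diets gave none of 10 for either smoke (limma, adjusted p below 0.05). Of all genes, 0.888% and 0.654% passed at that threshold for mainstream and sidestream smoke. At an unadjusted p below 0.05 it gave 4 of 10 for mainstream smoke (Ctss, Ctsz, Ctsh and Ctsc, each with the larger response in obese mice) and 1 for sidestream smoke (Ctsh). The share of all genes at the unadjusted threshold is not given here, so these counts have nothing to stand beside. Ctsh differed most beside its error, with a mainstream response larger by 0.39 ± 0.12 in obese mice (95% interval 0.15 to 0.63, adjusted p = 0.10) and passed only when DIO-SC-4 was left out (0.45 ± 0.11, adjusted p = 0.031), over the 48 fits that each left out 1 array. For Ctsk the difference was 0.20 ± 0.15 (95% interval -0.09 to 0.50), or 0.13 without the 5 arrays, and for Ctsd -0.15 ± 0.09. The median over the 10 genes was 0.18, or 0.09 without the 5 arrays, against 0.02 over all genes. Without the 5 arrays the differences of Ctss, Ctsz, Ctsh and Ctsc were 0.11, 0.12, 0.25 and 0.07.

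Within a group, the cathepsins varied together on certain arrays. Among the 8 regular weight mainstream arrays, RW-MS-7 was the highest for 8 of 10 members (Ctsk, Ctsd, Ctsl, Ctsb, Ctss, Ctsz, Ctsh and Ctsc), and RW-MS-2 was the lowest for 6 (Ctsk, Ctsd, Ctsb, Ctss, Ctsz and Ctsa). Among the obese mainstream arrays, DIO-MS-1 was the highest for 7 (all but Ctsk, Ctsl and Ctsh), and DIO-MS-4 was the lowest for 5. The mean of 12 macrophage markers was also highest on RW-MS-7 (10.8) and lowest on RW-MS-2 (10.1) in the first group, and highest on DIO-MS-1 (10.3) and lowest on DIO-MS-4 (10.1) in the second. The other groups were mixed for the macrophage mean. In obese air it was highest on DIO-SC-7 (9.91), the lowest array for 5 members and the highest for 4. RW-SS-6 (10.2), highest in its group, was the lowest array for 5 members and the highest for 1. DIO-SC-7 and RW-SS-6 are the arrays that carried fat markers, and the 12 macrophage markers include Fabp4, which fat also expresses. RW-SC-7 (9.87), highest in its group, was the lowest for 3 and the highest for 0. DIO-SS-3 (9.95), highest in its group, was the highest for 2 and the lowest for 0. Leaving out RW-MS-7 changed no count of risen cathepsins in mainstream smoke. With the group means subtracted and the 5 arrays left out (43 arrays), the 36 pairs among the 9 members other than Ctse correlated at r from 0.26 to 0.77, with a median of 0.55. These correlations share each array's RNA and scaling. Ctsd with Ctsz, Ctss with Ctsz and Ctsb with Ctsz were the closest pairs (0.77, 0.77 and 0.75). The neighbours Ctsk and Ctss correlated at 0.39, and Ctse with the other 9 at r from -0.52 (Ctsk) to 0.24 (Ctsc). Over all 48 arrays with group means subtracted, the 36 pairs without Ctse ran from -0.31 (Ctsl with Ctsh) to 0.86 (Ctsb with Ctsz). Ctsl with Ctsc, Ctsk with Ctsl and Ctsk with Ctsb were also negative there (-0.18, -0.08 and -0.05). The low end of the range therefore depended on leaving out the 5 arrays.

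**Figure D4:**
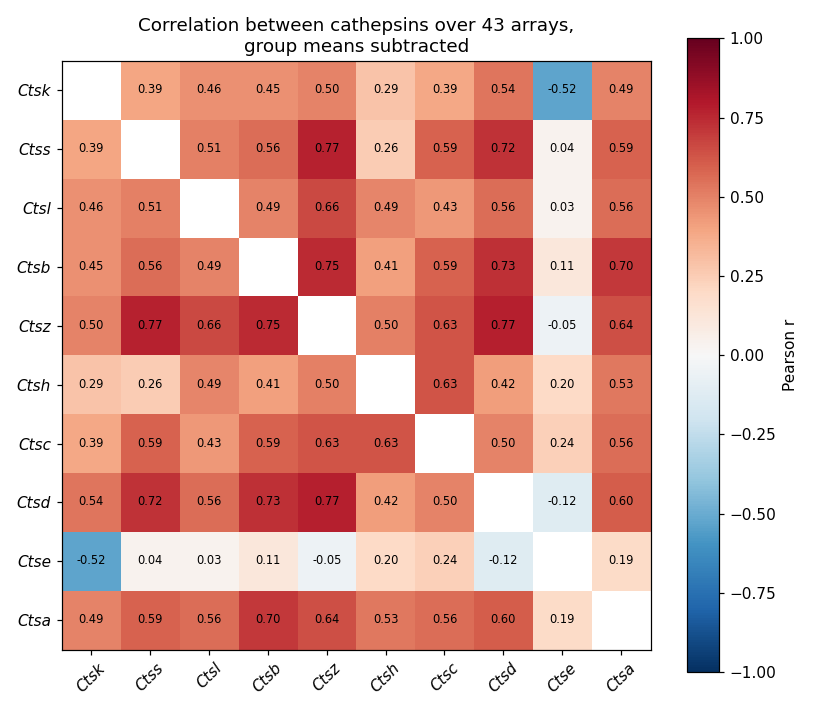
Pearson r between each pair of cathepsins over 43 arrays after the mean of each group was subtracted (colour and printed number). The 36 pairs without Ctse lie between 0.26 and 0.77, and the row of Ctse lies between -0.52 and 0.24.

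Macrophage markers moved with the family. In mainstream smoke 7 of 12 rose and 1 fell in regular weight mice, and 8 rose and 2 fell in obese mice, with Marco (1.98 ± 0.16 and 1.46 ± 0.16), Cd68 (1.36 ± 0.09 and 1.64 ± 0.09), Msr1 (1.16 ± 0.16 and 1.63 ± 0.16) and Itgax (0.98 ± 0.08 and 1.36 ± 0.08) changing most. The mean of the 12 markers lay between 9.75 and 9.87 in regular weight air, 9.68 and 9.91 in obese air, 10.1 and 10.8 in regular weight mainstream and 10.1 and 10.3 in obese mainstream. In sidestream smoke it lay between 9.70 and 10.2 in regular weight mice, highest on RW-SS-6, and between 9.63 and 9.95 in obese mice, and none of the 12 passed against air in either diet. The list includes Fabp4, which fat also expresses. Over the 48 arrays this mean correlated with Ctsd at r = 0.92, with Ctsk at 0.87, with Ctsh at 0.55 and with Ctse at 0.20. Within groups over all 48 arrays, r was 0.60 for Ctsb, 0.54 for Ctsd, 0.007 for Ctsk and -0.12 for Ctsh. Within groups and without the 5 arrays, r was 0.71 for Ctsb, 0.64 for Ctsd, 0.41 for Ctsk and 0.19 for Ctsh. Other markers moved as well: of 9 dendritic cell and MHC class II markers 2 rose in regular weight and 8 in obese mice (4 and 8 without the 5 arrays), and of 8 neutrophil markers 2 and 3 rose (2 and 2). Of 5 fibroblast markers 3 rose in each diet, and their mean lay between 10.95 and 11.45 in regular weight air, 11.43 and 12.11 in regular weight mainstream, 11.10 and 11.48 in obese air and 11.61 and 12.04 in obese mainstream. The mean of 9 alveolar type 2 markers lay between 13.00 and 13.15 in regular weight air and 13.00 and 13.18 in mainstream. In obese mice it lay between 12.30 and 13.05 in air and 12.91 and 13.20 in mainstream. Among them Sftpd had higher medians in mainstream smoke than in air (14.47 against 14.00, obese 14.50 against 13.88). Sftpb had lower ones (13.91 against 14.05, obese 13.94 against 13.97), and the counts of these 9 that passed are not given here. Of 5 endothelial markers 3 fell in regular weight and 1 in obese mice (3 and 2 without the 5 arrays), and the median of their mean went from 11.5 to 11.2 in both. Beside these counts in mainstream smoke, 6.61% of all genes rose and 8.07% fell in regular weight mice and 11.7% and 9.76% in obese mice. The part of any of these cells in the rise of the cathepsins was not tested.

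**Figure D5:**
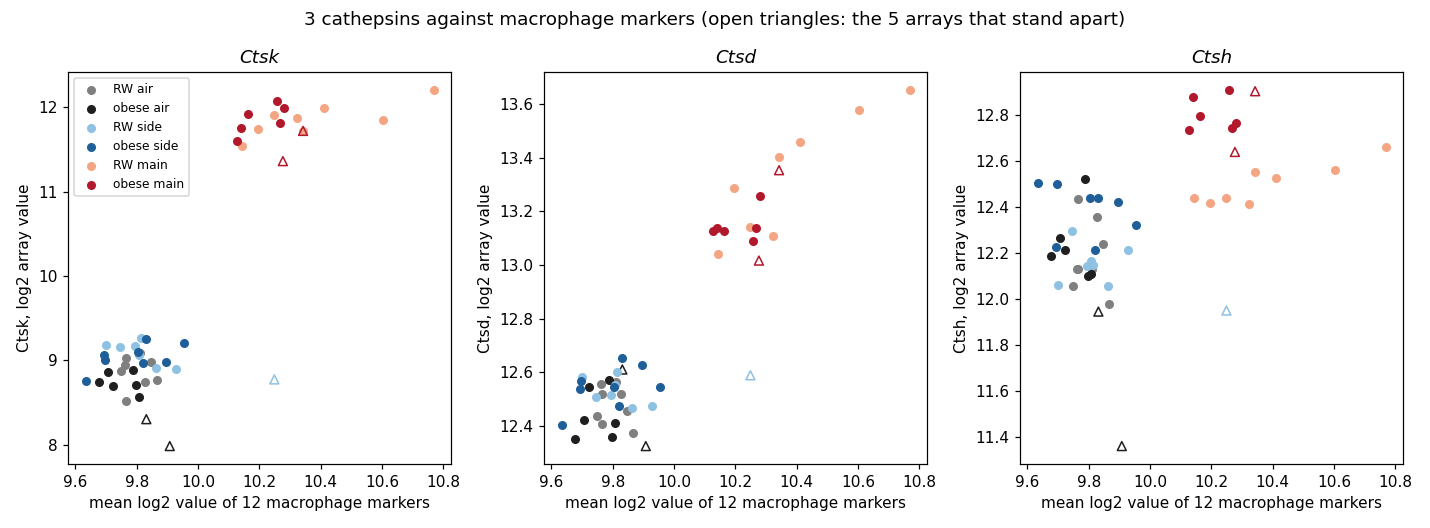
Log2 array value of Ctsk, Ctsd and Ctsh (vertical axes) against the mean log2 value of 12 macrophage markers (horizontal axis) on each of 48 arrays; open triangles are the 5 arrays that stand apart. All mainstream arrays lie above all others for Ctsk and Ctsd, and to the right of all others but RW-SS-6 (10.2 on the horizontal axis), while for Ctsh 7 of 8 obese mainstream arrays lie above every regular weight mainstream array.

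For each cathepsin the 3 genes outside the family with the highest r over the 48 arrays were taken. Ctsk was most like Mmp12 (macrophage elastase), Lcn2 and Ccl6, with r of 0.98 each. Mmp12 rose in mainstream smoke by 3.49 ± 0.13 in regular weight and 4.21 ± 0.13 in obese mice. Ctsd was most like Gpnmb (0.97), Trem2 (0.96) and Cd68 (0.95). Ctsb was most like C3ar1, C1qa and C1qb, Ctsz like C3ar1, Ms4a6d and Ms4a7, and Ctss like Mpeg1, Tyrobp and Clec7a, at r of 0.94 to 0.97. Ctsc was most like Lgmn, Acp2 and Ifi30 (0.93 to 0.94), Ctsa like Cd200r1, F7 and Cd68 (0.94 to 0.95), and Ctsh like Ppic, C6 and Serpina3n (0.90 to 0.92). For Ctsl and Ctse the closest genes were Xrcc6, Rrm1 and Hmgb2 (0.76 to 0.77) and Dnmt1, Dazap1 and Alyref (0.84 to 0.87), and these fell to 0.56 to 0.58 and 0.56 to 0.65 over the 43 arrays. With group means subtracted over the 43 arrays, Ctsk kept r of 0.27 with Mmp12, 0.21 with Lcn2 and 0.46 with Ccl6. Ctsd kept 0.71 to 0.80 with its 3 genes, and Ctsb 0.78 to 0.84 with its 3.

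Other cathepsins were mostly at the low end of the array. Of 14 on the array (Ctsf, Ctsw, Ctsg, the placental cathepsins and the related Tinag and Tinagl1), 10 had a mean below 6 over all arrays, among them Ctsg and all the placental ones, so that their lack of a rise says little, and 4 lay higher: Ctsf, Ctsw, Tinag and Tinagl1. None of the 14 rose in mainstream smoke in either diet. In regular weight mice 1 fell, Tinagl1, a matrix protein related to cathepsins without protease activity, by 0.67 ± 0.11 (adjusted p = 1.5e-05). In obese mice 2 fell, Tinagl1 by 0.68 ± 0.11 and Ctsf by 0.31 ± 0.08 (adjusted p = 0.0031). With those 5 arrays left out, 4 fell in regular weight mice and 2 in obese mice. The median difference of the 14 was 0.00 in regular weight and -0.03 in obese mice, against -0.03 and -0.02 over all genes. Of those, 6.61% rose and 8.07% fell in regular weight mice and 11.7% and 9.76% in obese mice. Tinagl1 was also lower in sidestream smoke than in air in obese mice (by 0.52 ± 0.11).

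Among 17 cystatins, serpins and related inhibitors measured, 3 rose in mainstream smoke in both diets. They were Serpina3n (0.91 ± 0.11 and 1.60 ± 0.11, regular weight and obese), Cstb, the intracellular cystatin B that inhibits several cysteine cathepsins (0.81 ± 0.09 and 0.80 ± 0.09), and Serpinb9 (0.37 ± 0.08 and 0.78 ± 0.08). Pzp fell in obese mice by 0.26 ± 0.09. Serpina3n responded more in obese mice (by 0.69 ± 0.16, adjusted p = 0.025), which did not pass without the 5 arrays. The median of the 17 was 0.01 and -0.03, against -0.03 and -0.02 over all genes, of which 6.61% and 11.7% rose and 8.07% and 9.76% fell.

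Genes that process cathepsins or sort proteins to the lysosome rose with them in part. Of 13 measured, 7 rose in regular weight and 8 in obese mice and none fell, with medians of 0.19 and 0.26. Among all genes, 6.61% and 11.7% rose, 8.07% and 9.76% fell, and the medians were -0.03 and -0.02. Lgmn, the asparaginyl protease that cleaves cathepsin precursors, rose by 0.48 ± 0.12 and 0.88 ± 0.12. Gnptab, which starts the mannose 6-phosphate tag, rose by 0.74 ± 0.08 and 0.79 ± 0.08, Psap by 0.51 ± 0.09 and 0.53 ± 0.09, and Dpp7 by 0.50 ± 0.07 and 0.57 ± 0.07.

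Of 13 regulators of lysosomal and osteoclast genes measured, 2 rose in regular weight mice, Tfec (0.70 ± 0.13) and Mitf (0.42 ± 0.07), both of the family that binds E-boxes, and none fell, or 3 rose and 1 fell without the 5 arrays. In obese mice 5 rose and 1 fell, or 3 and 1 without the 5 arrays, with Spi1 (PU.1, 0.90 ± 0.10), Tfec (0.75 ± 0.13), Ciita (0.67 ± 0.13) and Junb (0.55 ± 0.14) changing most. These values are from all arrays, and which of them passed without the 5 is not given here. In air Spi1 was lower in obese mice by 0.53 ± 0.10 (adjusted p = 0.00035), where 5.99% of all genes were lower. The count of the 13 in air is not given here, and the part of Spi1 in the level of Ctss was not tested. The medians of the 13 in mainstream smoke were 0.04 and 0.11 (0.04 in obese mice without the 5 arrays), against -0.03 and -0.02 over all genes. Shares of all genes were 6.61% risen and 8.07% fallen in regular weight mice and 11.7% and 9.76% in obese mice.

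Of 13 genes known with Ctsk from the osteoclast, 6 rose and 1 fell in regular weight mice and 6 rose and none fell in obese mice, with medians of 0.23 and 0.46 (0.22 in obese mice without the 5 arrays). Beside this, 6.61% of all genes rose and 8.07% fell in regular weight mice and 11.7% and 9.76% in obese mice, with medians of -0.03 and -0.02. Trem2 rose by 1.30 ± 0.13 and 1.38 ± 0.13, Tyrobp by 0.45 ± 0.10 and 0.81 ± 0.10, and Csf1 by 0.43 ± 0.11 and 0.90 ± 0.11. These 3 are also expressed by macrophages or by cells that support them. Acp5, the acid phosphatase used to stain osteoclasts, rose by 0.85 ± 0.19 in regular weight mice. In obese mice its difference was 0.46 ± 0.19 (adjusted p = 0.073) with all arrays and 0.47 ± 0.10 (adjusted p = 0.00053) without the 5. Of the defining osteoclast markers, Calcr (group means 4.34 to 4.59), Oscar (5.23 to 5.46) and Ocstamp (4.92 to 5.38) were near the bottom of the array, with 6.99% to 16.7% of genes below their means, in every group. Ocstamp rose in obese mice by 0.46 ± 0.14 with 1 array at 6.33, and did not pass without the 5 arrays (0.22 ± 0.12, adjusted p = 0.21).

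Of 18 measured substrates and clients, 4 rose and 2 fell in regular weight mice and 8 rose and none fell in obese mice, with medians of 0.01 and 0.29. Over all genes 6.61% rose and 8.07% fell in regular weight mice and 11.7% and 9.76% in obese mice, with medians of -0.03 and -0.02. When the 5 arrays were left out, 6 rose and 3 fell in regular weight mice and 7 rose in obese mice, with medians of 0.01 and 0.09. Collagen Col1a1 rose in both (0.75 ± 0.16 and 0.81 ± 0.16), and in regular weight mice elastin Eln rose by 0.69 ± 0.16, Col1a2 rose by 0.39 ± 0.09 and Gzma fell by 0.56 ± 0.17. In obese mice the class II genes H2-Ab1 (0.74 ± 0.08) and H2-Eb1 (0.69 ± 0.08) and the invariant chain Cd74 (0.60 ± 0.07), which Ctss trims, rose. In air 6 of the 18 were lower in obese mice (4 without the 5 arrays), against 5.99% of all genes. The largest differences were those of H2-DMa (0.48 ± 0.11), H2-Eb1 (0.40 ± 0.08), Napsa (0.34 ± 0.09) and H2-Ab1 (0.33 ± 0.08). The mainstream response of H2-Ab1 was larger in obese mice by 0.53 ± 0.11 (adjusted p = 0.013) with all arrays, and its value without the 5 arrays is not given here. In sidestream smoke Eln rose in both diets, by 0.82 ± 0.16 in regular weight and 0.76 ± 0.16 in obese mice.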

How the data were processed

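RNA of 48 mouse lungs was measured on Affymetrix arrays, 8 animals in each of 6 groups taken from the sample titles. RMA, which usually subtracts background, normalizes by quantiles and summarizes probes, is what the submitters' processing notes name for the log2 values the authors deposited, and its version is not given in the sources used here. Normalization by quantiles would hide a change of the total signal, and the number of arrays limits the precision.

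The deposited table held 22690 probe sets, 64 of them hybridization controls. Those with exactly 1 gene symbol (20380 used) were reduced to the probe set with the highest mean per gene, which left 12393 genes. A mean per group was fitted over all arrays with limma 3.58.1 (lmFit, eBayes) under R 4.3.3, and 11 contrasts were tested two-sided, each with Benjamini-Hochberg adjustment over all genes at 0.05. The code was tested on simulated data. Figures used matplotlib.

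Named were all members and their probe sets, from each gene list the called genes with the largest difference (at most 4), and for each member the 3 genes most like it. The members and lists were chosen with earlier results of these data known. Alternatives were another rule for probe sets, all probe sets, centring, trend and robust variance, array weights, a filter at a mean log2 of 6, only the groups compared, leaving out the 5 arrays, and the replicate number as a block. Leaving out each array in turn was added after the data were seen. For 4 regular weight smoke arrays the source label repeats the number of another array, and their values differed as those of separate animals did. Protein sequences were not used here.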

Additional observations from a re-analysis of the deposited data

Results flagged for a closer look

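In obese mice in air, 1 array stood far from the other 7 for 2 of the 10 cathepsins. Ctsl was 13.23 on DIO-SC-7, where the next highest array had 12.66, a gap of 0.735 of the whole range of the group. Ctse was 9.69 on DIO-SC-7, where the next highest had 7.94, a gap of 0.806 of the range. Gaps beyond Dixon's 95% limit for 8 arrays set these 2 apart among 60 combinations of gene and group, and chance alone passes that limit in about 1 group in 20. The same array was the lowest of its group for Ctsk, Ctsd, Ctss, Ctsh and Ctsc and carried the thymus markers, at a mean of 11.3. The part of those markers in these levels was not tested.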

How the results depend on the processing

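Over the 9 other settings, the 110 differences (10 genes, 11 comparisons) kept their direction and side of the threshold 935 times, newly passed 16 times, no longer passed 2 times and changed sign 37 times, always where neither passed; no call reversed. For obese against regular weight mice in mainstream smoke, the count of cathepsins that passed was 0 and became 1 with array weights, with only the groups compared and without the 5 arrays, and likewise 1 in sidestream smoke under the same 3. The 1 was Ctsh in each case. For sidestream smoke against air in obese mice it was 2 and became 1 without the 5 arrays, where Ctsh was lost. There Ctss was gained under trend and robust variance, array weights and the filter at a mean log2 of 6, and with only the groups compared Ctss was gained and Ctsh lost. Array weights and leaving out the 5 arrays each added Ctsl in regular weight mice, for mainstream smoke against air and against sidestream smoke. Array weights and only the groups compared each added Ctse in obese mice, for mainstream against sidestream smoke. With each array left out in turn, the count ran from 1 to 3 for obese against regular weight in air, from 0 to 1 for the diets in mainstream and in sidestream smoke and for the diet difference in the response to mainstream smoke, and from 1 to 3 for sidestream smoke against air in obese mice. Animals with the same number varied together about as little as others (median r of their deviations 0.02 over 120 pairs, against -0.01 over 840 pairs with different numbers). Of these pairs, 37 of 120 and 260 of 840 had r over 0.1. No pairing by number was seen over all pairs, and pairing within some groups was not tested. With the replicate block, all 110 differences were as without it, with 8 cathepsins risen in mainstream smoke in each diet. No alternative reached the background correction, since no scans were used, and for Ctse the 2 probe sets limit what can be read.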
